A study of Mus musculus with 4 samples.

Results

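Nod1, 7 genes that act with it in signalling and its 2 neighbours on chromosome 6 were examined in RNA sequencing of mouse embryonic stem cells. These 10 genes were taken by symbol from a table of 37991 Ensembl genes, in which each had 1 row, and all 10 passed the low-count filter. Nod1 was chosen because its counts differed between the genotypes in these same libraries. Its difference is therefore given as a description, with no test. The partners Ripk2, Xiap, Map3k7, Ikbkb, Nfkb1, Rela and Nfkbia were chosen by function, and Ggct and Znrf2 by position. The cells were wild type (wt) or null for both B-type lamins (dKO), with 2 biological replicates of each genotype. Lamins are filament proteins that line the inner face of the nuclear envelope. All 4 libraries carried the strain label ZHBTc4, the name of an embryonic stem cell line with a tetracycline-regulated Pou5f1 transgene. No treatment, time or clone is named in the labels. If each genotype was 1 line, loss of the lamins and a difference between lines cannot be told apart. Whether replicates were separate cultures or derivations is not given, so p-values measure only the spread between these samples.

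NOD1 is a cytosolic sensor of the NOD-like receptor family that recognises fragments of bacterial peptidoglycan. Once bound, it recruits the kinase RIPK2 through paired CARD domains. Ubiquitin chains placed on RIPK2, in part by XIAP, then bring in the kinase TAK1 (gene Map3k7) and the IKK complex, whose catalytic subunit is IKKbeta (Ikbkb). IKK marks the inhibitor IkBalpha (Nfkbia) for destruction, which frees the p50 (Nfkb1) and p65 (Rela) subunits of the transcription factor NF-kB. The pathway is best known from epithelial and immune cells, and embryonic stem cells are known for weak inflammatory responses.

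The libraries held 12899964 to 16697970 counts. The deleted genes matched the labels, with Lmnb1 at 607 and Lmnb2 at 111 CPM (counts-per-million, scaled between libraries) in wt cells and 5.12 and 2.90 CPM in dKO cells. Embryonic stem cell markers were abundant in each library, 12 genes together giving 6311 and 6109 CPM in wt cells against 6969 and 7169 CPM in dKO cells. Single markers did not share the direction of the sum, with log2 fold changes above 0 for 4, below 0 for 8 and a median of -0.015. Zfp42, a marker of the naive state named after its values were seen, had the largest positive value. It had 665 and 613 CPM in wt cells against 1447 and 1433 CPM in dKO cells. Zfp42 was 2.25 times as high in dKO cells by the fit (edgeR adjusted p = 0.0886) and was called by DESeq2. Klf4 (log2 fold change 0.57) and Esrrb (0.32) were also higher in both dKO libraries, while Dppa5a (-0.13) and Utf1 (-0.21) were lower in both. The genotypes of the other markers, Pou5f1 and Nanog among them, overlapped. The part of these marker differences in the Nod1 counts was not tested. In edgeR's quasi-likelihood test 12 of 14027 genes passed an adjusted p of 0.05, which is 0.0855% of the genes tested.

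The upstream sequences of Nod1 and its neighbours are shown first because Nod1 and Ggct lie beside each other on the same strand and both had more counts in dKO cells. Those of Nfkbia and Map3k7 are the ones among the members with a match to the NF-kB consensus. Each is the 250 bases before a RefSeq transcript start in GRCm38.p6, and capitals mark such a match. The NF-kB consensus decamer was searched on both strands.
Nod1 upstream start (chr6:54972613-54972862, minus strand): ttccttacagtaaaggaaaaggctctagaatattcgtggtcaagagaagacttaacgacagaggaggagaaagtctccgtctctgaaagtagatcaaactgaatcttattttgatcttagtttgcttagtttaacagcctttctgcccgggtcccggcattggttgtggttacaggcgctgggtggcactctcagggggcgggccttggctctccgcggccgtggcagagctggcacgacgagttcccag
Nod1 downstream start (chr6:54971662-54971911, minus strand): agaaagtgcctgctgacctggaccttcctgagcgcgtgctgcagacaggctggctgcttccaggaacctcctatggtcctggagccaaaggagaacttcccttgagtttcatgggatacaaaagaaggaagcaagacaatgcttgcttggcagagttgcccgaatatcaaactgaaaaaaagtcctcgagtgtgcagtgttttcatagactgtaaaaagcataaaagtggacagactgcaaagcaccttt
Ggct (chr6:54992868-54993117, minus strand): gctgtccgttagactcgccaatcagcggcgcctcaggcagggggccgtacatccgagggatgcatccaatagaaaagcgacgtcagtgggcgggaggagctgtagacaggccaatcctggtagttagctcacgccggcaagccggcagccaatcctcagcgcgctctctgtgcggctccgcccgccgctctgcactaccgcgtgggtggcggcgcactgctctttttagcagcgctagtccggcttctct
Znrf2 (chr6:54816666-54816915, plus strand): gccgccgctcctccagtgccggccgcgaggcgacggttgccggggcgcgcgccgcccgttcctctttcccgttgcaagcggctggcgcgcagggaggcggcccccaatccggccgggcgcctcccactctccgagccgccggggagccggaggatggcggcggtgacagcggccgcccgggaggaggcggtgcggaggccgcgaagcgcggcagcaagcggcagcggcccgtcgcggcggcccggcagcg
Nfkbia (chr12:55492648-55492897, minus strand): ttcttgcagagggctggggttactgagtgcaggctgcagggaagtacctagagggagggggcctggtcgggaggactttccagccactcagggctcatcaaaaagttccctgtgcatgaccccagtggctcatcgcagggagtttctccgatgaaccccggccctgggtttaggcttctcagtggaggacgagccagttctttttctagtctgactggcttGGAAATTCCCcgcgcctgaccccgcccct
Map3k7 (chr4:31963857-31964106, plus strand): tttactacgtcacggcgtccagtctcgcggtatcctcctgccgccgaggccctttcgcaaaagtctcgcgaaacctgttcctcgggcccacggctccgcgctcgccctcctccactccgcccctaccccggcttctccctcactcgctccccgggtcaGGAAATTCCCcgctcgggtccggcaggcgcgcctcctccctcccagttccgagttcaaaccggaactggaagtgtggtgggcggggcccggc
Neither Nod1 window, nor that of Ggct or Znrf2, held a match on either strand, nor did those of Xiap and Rela. Nfkbia and Map3k7 held the same 10 letters, GGAAATTCCC, whose reverse complement matches the consensus, 29 and 92 bases before the start. In all, 7.3% of 32851 windows of this length held a match, and 7 of the 10 members had a window in the table. The windows differed in CG dinucleotides, with 12 at the upstream and 4 at the downstream start of Nod1, 24 at Ggct and 44 at Znrf2. The median window had 6. A match, or its absence, describes these letters only.

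Nod1 was counted 36 and 40 times in replicates 1 and 2 of the wt cells, and 772 and 509 times in those of the dKO cells. This came to 2.81 and 2.63 CPM against 47.3 and 30.3 CPM. Both dKO libraries were far above both wt libraries, and the lowest dKO value was more than 10 times the highest wt value. In bulk RNA more cells that express Nod1 and more Nod1 RNA per cell cannot be told apart. The wt mean was 2.72 ± 0.13 CPM and the dKO mean 38.8 ± 12.03 CPM (SD, n = 2 each). The fitted log2 fold change was 3.83 (SE 0.29, 14.3-fold), the 8th highest of 14027. Without dKO replicate 1 it was 3.48, and without dKO replicate 2 it was 4.12. The dKO replicates differed from each other by 0.64 on the log2 scale, a gap matched or exceeded by 15.5% of the genes tested, and the wt replicates by 0.09. The gene lay on chromosome 6 at 54873936 to 54922606 in the table (ENSMUSG00000038058), on the minus strand by GENCODE M21. No other row of the table overlapped it, nor did any other M21 gene in M21 coordinates.

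**Figure D1:**
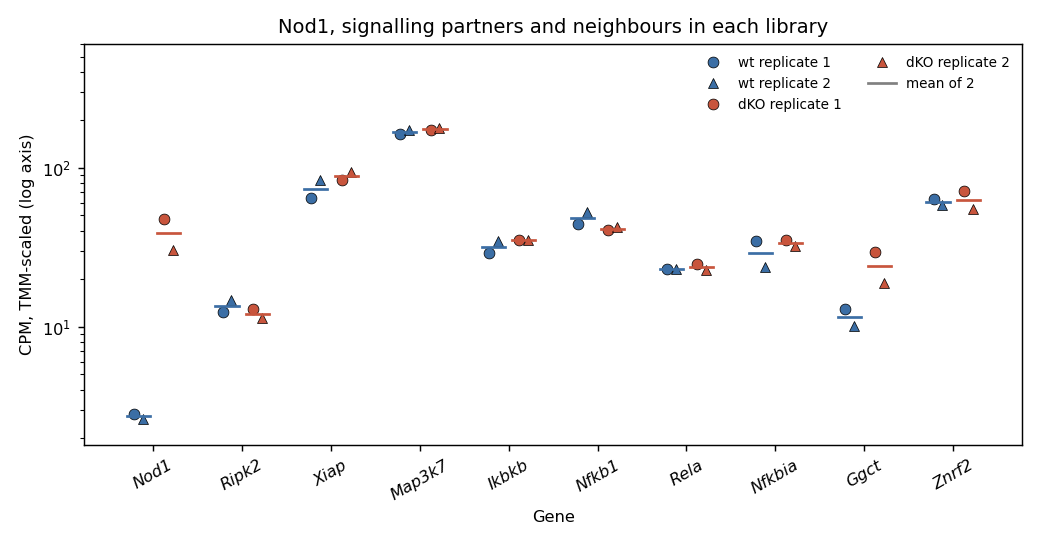
CPM of each of the 10 genes (horizontal axis) on a log axis, with circles for replicate 1, triangles for replicate 2, blue for wt, red for dKO and bars for the mean of 2 libraries. Nod1 moves from 2.63 to 2.81 CPM in wt libraries to 30.3 to 47.3 CPM in dKO libraries, and Ggct is the other gene with a clear gap between genotypes.

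All 7 signalling partners were expressed in both genotypes, and none passed edgeR's test in either direction. The 0 of 7 stand beside 0.0855% of all genes, 0.0356% higher and 0.0499% lower. None had an unadjusted p under 0.05, as 2.87% of all genes did higher and 2.71% lower, and DESeq2 and limma-voom also called 0 of 7. Their log2 fold changes lay between -0.24 and 0.26, with a median of 0.06, beside a median of -0.002 over all genes tested. The dKO libraries lay above both wt libraries for Xiap and Ikbkb and below both for Nfkb1. Over all genes, 17.2% were higher and 16.4% lower in this way.

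Ripk2, the adaptor kinase bound by NOD1, had 12.3 and 14.6 CPM in wt cells against 12.9 and 11.3 CPM in dKO cells. The genotypes overlapped, with a log2 fold change of -0.16 and a 95% interval of -0.68 to 0.36 (edgeR adjusted p = 0.985). A doubling of Ripk2 lies outside that interval. Xiap, which also inhibits caspases, had 64.0 and 83.6 CPM in wt cells against 83.8 and 93.4 CPM in dKO cells. The upper wt value and the lower dKO value nearly touched. The log2 fold change of Xiap was 0.26 (-0.15 to 0.67, adjusted p = 0.953 in edgeR), and 0.08 without wt replicate 1.

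Map3k7, the gene of the kinase TAK1, had the highest CPM of the members. It was at 163 and 173 CPM in wt cells against 172 and 178 CPM in dKO cells, which overlapped. The fitted value was 0.06 (-0.22 to 0.33, edgeR adjusted p = 0.99). Ikbkb had 29.0 and 34.6 CPM in wt cells against 35.1 and 35.0 CPM in dKO cells, so wt replicate 2 was level with both dKO libraries. Its log2 fold change was 0.14 (-0.23 to 0.52, edgeR adjusted p = 0.981).

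Nfkb1, whose product is processed to the p50 subunit, had 44.4 and 52.7 CPM in wt cells against 40.3 and 42.0 CPM in dKO cells. It was the member with the most negative value, -0.24 (-0.60 to 0.12, edgeR adjusted p = 0.947). Rela, encoding the p65 subunit, had 23.0 and 23.1 CPM in wt cells against 24.6 and 22.8 CPM in dKO cells. The wt values of Rela lay between the dKO values, with a log2 fold change of 0.04 (-0.34 to 0.42, adjusted p = 0.995 in edgeR). Nfkbia is both the inhibitor of NF-kB and one of its classical targets. It had 34.5 and 23.7 CPM in wt cells against 35.2 and 32.3 CPM in dKO cells, so the wt replicates stood farther apart than the genotypes. On the log2 scale the difference was 0.22 (-0.31 to 0.74, edgeR adjusted p = 0.981), and -0.03 without wt replicate 2.

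Levels of different genes were compared as CPM per kilobase of the longest protein-coding transcript in GENCODE M21. In wt cells Nod1 was the lowest of the 10 genes at 0.63 ± 0.03 CPM per kilobase (SD, n = 2), below Ggct (2.89) and Ripk2 (4.997 ± 0.63). In dKO cells its level of 9.0 ± 2.79 CPM per kilobase (SD, n = 2) lay among those of Ikbkb (8.82), Rela (8.73) and Nfkb1 (9.99), from which it did not differ beyond its own spread. On this length Ripk2 was the lowest at 4.48 ± 0.42 CPM per kilobase (SD, n = 2). Map3k7 was the highest in both genotypes, at 29.1 and 30.3 CPM per kilobase, followed by Nfkbia at 18.4 and 21.4. Below these the order depends on the length used. Per kilobase of all annotated exons, Nod1 was again lowest in wt cells at 0.54 CPM. In dKO cells Nod1 was then at 7.65 CPM per kilobase, beside Rela at 7.72. Ikbkb (1.84), Ggct (3.12), Nfkb1 (3.41) and Ripk2 (4.29) lay below it on that scale, so Ikbkb and not Ripk2 was lowest.

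Ggct, which encodes gamma-glutamylcyclotransferase of glutathione breakdown, lies next to Nod1. Its interval in the table, 54932574 to 54942944 on chromosome 6, begins 9967 bases beyond the 5′ end of Nod1, and both genes are on the minus strand. Counts of Ggct were 164 and 153 in wt cells against 481 and 316 in dKO cells. In CPM these were 12.8 and 10.05 against 29.5 and 18.8, and the genotypes did not overlap. The log2 fold change was 1.08 (SE 0.28, 95% interval 0.40 to 1.77), the 129th highest of 14027. Leaving out each library in turn gave 0.73 to 1.37, the lowest without dKO replicate 1. With genotype as the only term, Ggct did not pass the test (edgeR adjusted p = 0.657), nor did it by DESeq2 (0.129) or limma-voom (0.75). The unadjusted p in edgeR was 0.0086, the 184th lowest of 14027, while 5.57% of the genes tested had one under 0.05 in either direction. The labels do not say that replicate numbers mark a shared origin. With a replicate block, which called 1299 of 14027 genes, Ggct passed as higher (edgeR adjusted p = 2.5e-05). Its dKO replicates stood in nearly the same ratio as those of Nod1, with replicate 1 at 1.57 times replicate 2 for Ggct and 1.56 times for Nod1. As 15.3% of the genes tested had a dKO replicate gap at least as wide as that of Ggct, this likeness is a description only.

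Znrf2, a membrane-bound RING ubiquitin ligase gene, lies on the other side. It is on the plus strand at 54766910 to 54843494 and ends 30441 bases from the 3′ end of Nod1. It had 63.2 and 58.5 CPM in wt cells against 70.8 and 54.8 CPM in dKO cells. The wt values lay between the dKO values, with a log2 fold change of 0.05 (95% interval -0.36 to 0.45, edgeR adjusted p = 0.995). A doubling of Znrf2 lies outside that interval.

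Within 1 Mb of Nod1 the table had 27 other rows, and 12 of them passed the filter, Ggct and Znrf2 included. None passed edgeR's test, and 2 had an unadjusted p under 0.05 (Ggct and Scrn1, both higher), beside 2.87% of all genes in that direction. DESeq2 and limma-voom called 0 of 12, and edgeR with a replicate block called Ggct and Scrn1. The log2 fold change was above 0 for 9 of the 12 and below 0 for 3, with a median of 0.23, while 6967 of all 14027 genes (49.7%) were positive. The dKO libraries lay above both wt libraries for 5 of the 12 and below both for 1, beside 17.2% and 16.4% of all genes. The median was 0.05 with no low-count filter. With single libraries left out it was 0.13 (wt replicate 1), 0.49 (wt replicate 2), 0.07 (dKO replicate 1) and 0.13 (dKO replicate 2).

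Scrn1, the secernin 1 gene 357452 bases from Nod1, had 28.2 and 21.7 CPM in wt cells against 36.2 and 42.8 CPM in dKO cells. Its log2 fold change was 0.67 (95% interval 0.20 to 1.13, edgeR adjusted p = 0.72). Mturn, a gene of neural differentiation that lies closer, had 11.2 and 12.1 CPM in wt cells against 16.99 and 15.1 CPM in dKO cells (0.45, -0.02 to 0.93). Both dKO libraries lay above both wt libraries for these 2 genes, as for Ggct, Gars and Adcyap1r1, and for 17.2% of all genes. Gars, the glycyl-tRNA synthetase gene on the far side of Ggct, was the most abundant of the region at 697 and 618 CPM in wt cells against 776 and 699 CPM in dKO cells. Its log2 fold change was 0.17 (-0.16 to 0.49). The higher wt and the lower dKO value of Gars nearly met.

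The remaining genes within 500 kb had wide intervals or values near 0. Plekha8, encoding a lipid transfer protein, had a log2 fold change of 0.02, Fkbp14, a prolyl isomerase gene, -0.06, and Wipf3, an actin regulator gene, -0.22. Mindy4, a deubiquitinase gene, had 0.29, and Adcyap1r1, the receptor for the neuropeptide PACAP, had 0.77. The last 2 were under 4 CPM in every library. Between Scrn1 and Nod1 lay Fkbp14, Plekha8, Mturn and Znrf2. Of these Mturn was higher in both dKO libraries, and the genotypes of the others overlapped. On the other side of Nod1, its nearest tested genes Ggct and Gars were higher in both dKO libraries, and Mindy4 overlapped. Whether position had a part in these differences was not tested. Adcyap1r1 was also higher in both dKO libraries, and Wipf3 lower in both. Farther out, the carboxypeptidase gene Cpvl, named after its values were seen, had 1.43 with an interval of -0.88 to 3.74 from 2 to 31 counts a library.

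**Figure D2:**
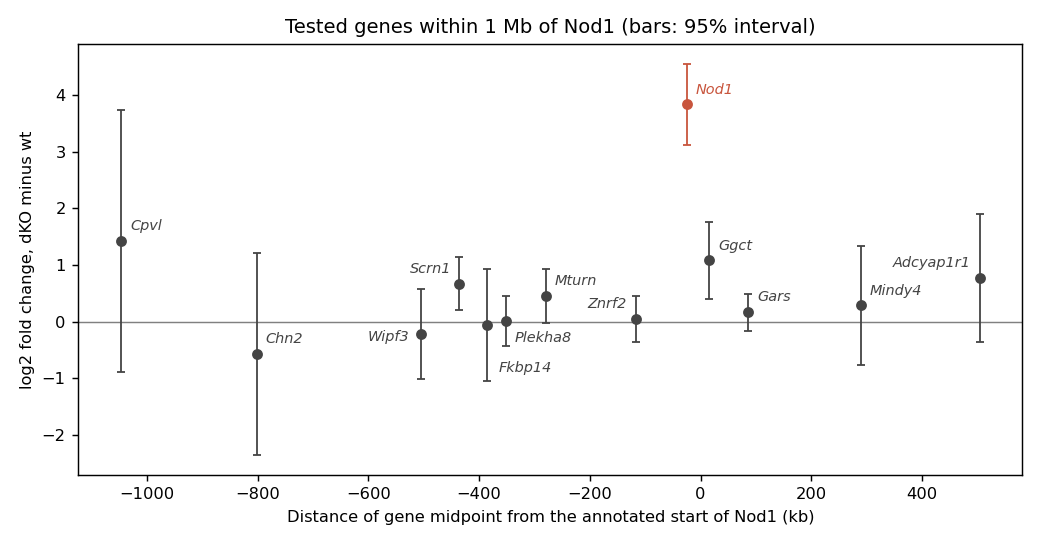
Log2 fold change (dKO minus wt, vertical axis) of Nod1 in red and of the 12 tested genes within 1 Mb in grey, by distance in kilobases of the gene midpoint from the annotated start of Nod1, with 95% intervals as bars. Nod1 stands at 3.83, Ggct at 1.08 and Znrf2 at 0.05.

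The rest of the pathway was read from 40 genes for peptide transporters, TAK1 and IKK partners, ubiquitin enzymes, NF-kB subunits and inhibitors, and chaperones. All had a row and 38 passed the filter. In edgeR 0 passed over all genes, and 1 higher and 1 lower had an unadjusted p under 0.05, beside 2.87% and 2.71% of all genes. DESeq2 called 1 of them, Slc15a2, and limma-voom 0. The values were evenly divided, 19 above and 19 below 0, with a median of -0.003.

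Slc15a2 had the largest difference of these genes, and it was lower. It encodes PEPT2, a transporter of small peptides that can carry peptidoglycan fragments into cells. Counts were 108 and 146 in wt cells against 45 and 40 in dKO cells, or 8.43 and 9.59 CPM against 2.76 and 2.38 CPM. Both dKO libraries lay well below both wt libraries. The log2 fold change was -1.81 (SE 0.28, 95% interval -2.50 to -1.11). It missed the threshold in edgeR (adjusted p = 0.271) and limma-voom (0.28), and passed in DESeq2 (0.0047) and in edgeR with no low-count filter (0.0269). Leaving out each library in turn gave -1.91 to -1.70.

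Erbin, a scaffold protein gene, had 49.0 and 56.3 CPM in wt cells against 68.4 and 68.6 CPM in dKO cells (0.38, edgeR adjusted p = 0.806) and was the higher gene with an unadjusted p under 0.05, named after its values were seen. The chaperones Hsp90ab1 (-0.10) and Hsp90aa1 (0.08), which stabilise NOD1, had the highest counts. Map2k6, a kinase of the p38 branch, had -0.80 (-1.93 to 0.33). Nod2, the closest relative of Nod1 in function, had 0.62 and 1.25 CPM in wt cells against 0.74 and 1.01 CPM in dKO cells. With 8 to 19 counts a library, a change of Nod2 as small as 2-fold was not detectable, but the interval of -1.45 to 1.23 leaves out the size seen for Nod1.

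With genotype as the only term, no gene of a list that NF-kB is known to induce passed as higher in the dKO cells. Of 33 such genes, Ripk2 among them, 32 had a row, 17 passed the filter and 0 passed edgeR's test, DESeq2 or limma-voom. An unadjusted p under 0.05 was reached by 2 genes, both lower, beside 2.71% of all genes in that direction. Values were above 0 for 2 and below 0 for 15, with a median of -0.22 beside -0.002 over all genes. Leaving out each library in turn gave medians of -0.33 to -0.04, the latter without wt replicate 2. The dKO libraries were above both wt libraries for 1 of the 17 and below both for 5, against 17.2% and 16.4% of all genes.

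Sod2, mitochondrial superoxide dismutase, had 197 and 196 CPM in wt cells against 202 and 222 CPM in dKO cells (0.11, 95% interval -0.18 to 0.40). Icam1, a cell adhesion molecule, had a log2 fold change of -0.15, with overlapping genotypes. Ptgs2, encoding cyclooxygenase 2, had the largest positive value, 0.86 (-0.15 to 1.87, edgeR adjusted p = 0.907), at 5.39 and 9.46 CPM in wt cells against 9.44 and 17.6 CPM in dKO cells. Csf1, a macrophage growth factor, had the largest negative value, -1.13 (-3.58 to 1.33), and differed more between replicates than between genotypes, at 2.19 and 12.9 CPM in wt cells against 1.17 and 5.78 CPM in dKO cells. The 2 genes with an unadjusted p under 0.05, named after their values were seen, were Tapbp, of antigen loading (-0.82, edgeR adjusted p = 0.72), and Gadd45b, of stress signalling (-0.47, edgeR adjusted p = 0.782). Of the inflammatory cytokines and chemokines on the list, Cxcl10 and Csf1 were the ones to pass the filter.

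**Figure D3:**
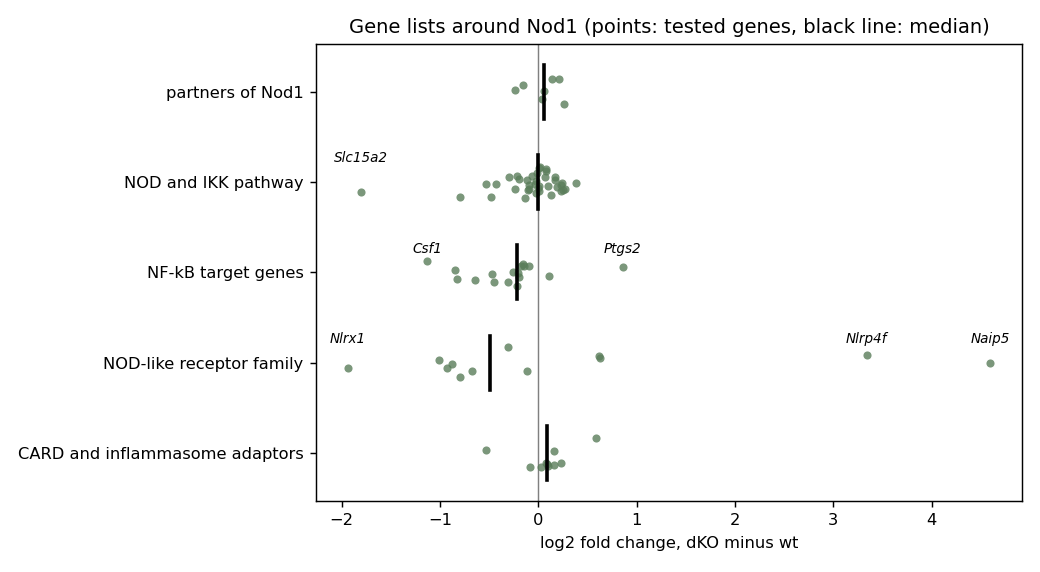
Log2 fold change (dKO minus wt, horizontal axis) of each tested gene of 5 lists (vertical axis), with a black line at the median of each list. The partners of Nod1 cluster near 0 with a median of 0.06, the NF-kB targets have a median of -0.22, and Nlrp4f and Naip5 stand apart among the NOD-like receptors.

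Nod1 belongs to a family of receptors, of which 27 other members, Nod2 included, had a row and 12 passed the filter. Most were hardly expressed: 4 had no count in any library, and 11 of the 12 tested stayed at or under 4.99 CPM in each library. None passed edgeR's test. With an unadjusted p under 0.05, Nlrp4f was higher and 1 gene lower, beside 2.87% and 2.71% of all genes. Naip5 passed the filter through the dKO libraries alone, so it is left out of that count and given as a description only. DESeq2 called 1, Nlrp4f, and limma-voom 0. The lower gene was Nlrx1, a mitochondrial member (-1.93, edgeR adjusted p = 0.888), named after its values were seen. Values, that of Naip5 included, were above 0 for 4 and below 0 for 8. Their median of -0.49 became 0.27 when wt replicate 2 was left out, -0.30 without dKO replicate 1 and -0.81 without the other dKO library. Genes of this family that are low in wt cells can pass the filter through the dKO libraries alone, so these counts do not stand for the whole family.

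Nlrp4f, a member expressed in oocytes and early embryos, was the other receptor with sizeable counts. It had 70 and 141 counts in wt cells against 792 and 1701 in dKO cells, or 5.47 and 9.26 CPM against 48.6 and 101 CPM. Both dKO libraries lay at least 5 times above both wt libraries, and replicate 2 was the higher library in each genotype. The log2 fold change was 3.34 (SE 0.44, 95% interval 2.24 to 4.43) and missed the threshold in edgeR (adjusted p = 0.217) and limma-voom (0.358). It passed in DESeq2 (1.1e-14). In edgeR with 1 library left out, Nlrp4f missed the threshold without wt replicate 1 (3.01, adjusted p = 0.491) or wt replicate 2 (3.78, adjusted p = 0.806). It was past it without dKO replicate 1 (3.78, adjusted p = 0.0014) or dKO replicate 2 (2.72, adjusted p = 0.0121). Each such fit leaves 1 library in a genotype, which is assumed to vary like the 2 libraries of the other. Its relative Nlrp4a, named after its values were seen, had few counts (-1.005, edgeR adjusted p = 0.969), and reads can be divided among such copies. Nlrc4, which forms inflammasomes with NAIP proteins, had -0.30 (-1.22 to 0.61) at under 5 CPM.

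Naip5, a sensor of bacterial flagellin named by its likeness to Nod1 across the libraries, had 2 and 0 counts in wt cells against 30 and 34 in dKO cells. As it was picked for the difference that Nod1 shows, and passed the filter through the dKO libraries alone, these values are a description with no test. The neighbouring copies Naip1, Naip2 and Naip6 had 0 to 5 counts in each library, and reads of such near copies are uncertain. In dKO libraries Naip5 stayed near 2 CPM, far below Nod1.

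Adaptors that carry CARD domains or join inflammasomes gave no call with genotype as the only term. Of 13 genes 10 passed the filter and 0 passed edgeR, DESeq2 or limma-voom. In edgeR 0 had an unadjusted p under 0.05, beside 5.57% of all genes in either direction. The median log2 fold change was 0.09, -0.06 without wt replicate 1, 0.17 without wt replicate 2 and 0.03 without dKO replicate 2. Casp2 (0.10) and Apaf1 (0.08), of the cell death machinery, had the highest CPM. Card10, a CARD scaffold upstream of IKK, had -0.53 (-1.22 to 0.16), and Cradd, a partner of Casp2, had 0.23 (-0.31 to 0.77).

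The profile of Nod1 over the 4 libraries was compared with those of the other 14026 tested genes, by the root mean square difference of log2 CPM centred on the mean of each gene. Leaving out predicted-gene names, the nearest were Naip5 (0.49), Hal (0.55), Nlrp4f (0.71), Cyct (0.72) and Apoa2 (0.92). Hal encodes histidine ammonia-lyase, Cyct the cytochrome c of testis and Apoa2 an apolipoprotein. Hal had 0.94 and 0.53 CPM in wt cells against 10.2 and 17.2 CPM in dKO cells. Cyct had 2.42 and 3.02 CPM in wt cells against 14.6 and 15.97 CPM in dKO cells, and Apoa2 had 0 and 3 counts in wt cells against 124 and 125 in dKO cells. These genes lie on chromosomes 13, 10, 13, 2 and 1 in that order. All were low in both wt and higher in both dKO libraries, and with 4 libraries this measure rests largely on the genotype difference that Nod1 was chosen for. Ggct ranked 76th at 1.35, and the 7 partners and Znrf2 lay between 1.76 and 2.00.

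**Figure D4:**
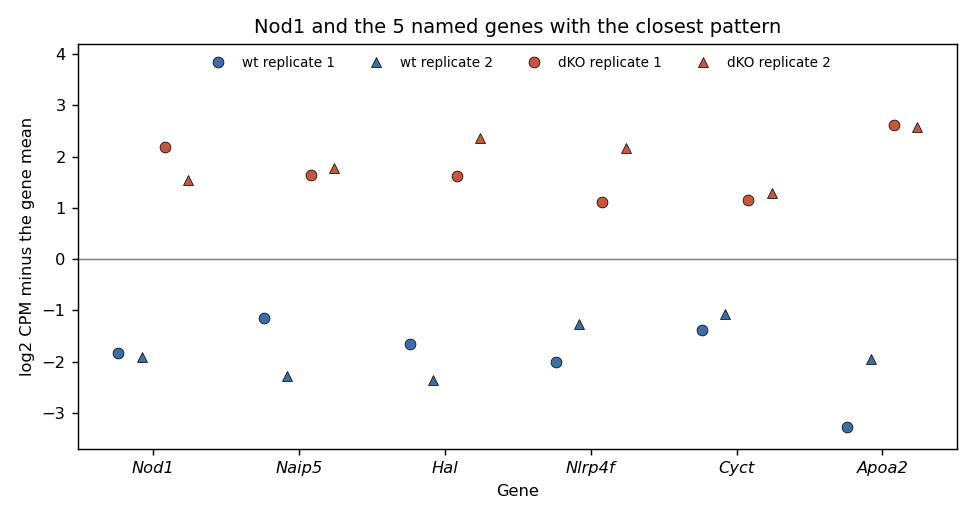
Log2 CPM minus the mean of each gene (vertical axis) for Nod1 and the 5 named genes with the nearest profiles (horizontal axis), with circles for replicate 1, triangles for replicate 2, blue for wt and red for dKO. In each gene both wt libraries lie below 0 and both dKO libraries above, while the replicate order differs between genes.

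NOD1 is found in many tissues, so markers of other cells were read beside its counts. Of 12 macrophage and blood markers 5 passed the filter, and the sum was 134 and 144 CPM in wt cells against 158 and 236 CPM in dKO cells. Most of it came from Laptm5, and without that gene, left out after its values were seen, the sums overlapped at 30.4 and 27.6 CPM in wt cells against 22.7 and 38.6 CPM in dKO cells. Laptm5 itself was higher in both dKO libraries (0.60, edgeR adjusted p = 0.79). Cd68 had 247 to 361 counts a library, Itgam 53 to 156, Spi1 19 to 77 and Cd74 14 to 33, each with overlapping genotypes. Csf1r and Fcer1g had 2 to 20. Adgre1 and Tyrobp had no count, and Ptprc, Lyz2 and Cd14 had 0 to 2 counts in each library. Fibroblast markers (8 of 12 tested) summed to 1216 and 1619 CPM in wt cells against 1447 and 1765 CPM in dKO cells, most of it from Fn1. The other 7 tested had log2 fold changes below 0, and the median of the 8 was -0.53. Pdgfrb was lower in both dKO libraries (-3.26, edgeR adjusted p = 0.72). Extraembryonic and epithelial markers (11 of 12 tested) summed to 658 and 776 CPM in wt cells against 562 and 670 CPM in dKO cells. The sums of both lists overlapped between genotypes. Of the 11 tested extraembryonic and epithelial markers, 5 had log2 fold changes above 0 and 6 below. Sox7, an endoderm factor (1.503, edgeR adjusted p = 0.72), and Gata4 (0.55, edgeR adjusted p = 0.95) were higher in both dKO libraries, as were 17.2% of all genes. With overlapping genotypes, Gata6 had 0.53 and Sox17 0.50, while Krt18 had -0.56, Krt7 -0.65 and Krt8 -0.65. The single markers of these lists were named after their values were seen. The part of any of these lists in the Nod1 counts was not tested.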

How the data were processed

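Total RNA of 2 wt and 2 dKO samples was extracted with Trizol and sequenced from TruSeq libraries (labels' protocols). What the authors deposited are raw read counts per Ensembl gene. The submitters' processing notes list TopHat2 2.0.6, TopHat and HTSeq without saying what each did. The build, annotation and strand setting were not given in the sources used here, so reads of overlapping, antisense or near-identical genes are uncertain, and table positions are in the table's own build. GENCODE M21 gave symbols to 32919 of 37991 genes, and strands and lengths.

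After filterByExpr and TMM scaling, the robust quasi-likelihood test of edgeR 4.0.16 was run in R 4.3.3 with genotype as the only term and Benjamini-Hochberg adjustment over 14027 genes. Fold changes are dKO minus wt, and SEs come from the F statistic. DESeq2 1.42.0, limma-voom (limma 3.58.1), other scalings and filters, a replicate block and each library left out were alternatives. A prior count of 2 was used for log2 CPM profiles. The scripts were tested on simulated data.

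Members and lists were chosen with earlier results of these data known. Named by rule were all members, tested protein-coding genes within 500 kb of Nod1, the 5 nearest profiles and, from each list, genes past the threshold, Nod2, the 2 with the highest CPM and the 2 with the largest change at a mean of at least 5 CPM. Upstream sequences are from RefSeq (GRCm38.p6). Counts of replicates differed beyond sampling noise, with 14.7 as the chi-square divided by its degrees of freedom in each genotype. With 2 replicates an exact permutation test of 1 value cannot go below p = 0.333.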

Additional observations from a re-analysis of the deposited data

How the results depend on the processing

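Where edgeR called 12 genes, DESeq2 called 96 and limma-voom 5. Dropping the low-count filter gave 80, and leaving out single libraries gave 18 to 27. With a replicate block the count was 1299 of 14027 genes, and Ggct passed as higher (log2 fold change 1.06, edgeR adjusted p = 2.5e-05). Scrn1, Erbin, Ptgs2 and Nlrp4f were also called higher with the block. Slc15a2, Map2k6, Gadd45b, Tapbp, Csf1, Card10, Nlrp4a, Nlrx1 and Relb were called lower. Naip5 is left out here, as it was picked for the difference that Nod1 shows. Markers called with the block were Laptm5, Zfp42, Klf4, Esrrb, Sox7 and Epcam, higher, and Krt7, Krt8, Krt18, Acta2, Col5a1 and Pdgfrb, lower. Of the 7 partners of Nod1, 0 were called with the block, beside 1299 of all 14027 genes. The deviations of libraries with the same number were correlated (r = 0.65 across genes), but the labels do not say that a number marks a shared origin. The Nod1 log2 fold change lay between 3.48 and 4.12 with 1 library left out. Without a filter the neighbourhood median was 0.0534, and on total counts Plekha8 had -0.0021. With 1 library left out, values that changed sign uncalled ran from -0.0311 to 0.504 (Nfkbia), -0.0126 to 0.0965 (Rela), -0.147 to 0.224 (Znrf2), -0.512 to 0.482 (Nod2), -0.297 to 0.015 (Icam1), -2.69 to 0.668 (Csf1), -0.459 to 0.513 (Fkbp14), -0.147 to 0.63 (Mindy4), -0.184 to 0.248 (Plekha8), -0.059 to 0.268 (Casp2), -0.263 to 0.0528 (Hsp90ab1) and -0.695 to 0.0119 (Nlrc4). The medians ran from -0.0286 to 0.0455 (pathway list), -0.059 to 0.168 (CARD adaptors), -0.815 to 0.267 (NOD-like receptors) and 0.0733 to 0.488 (neighbourhood). The cause was not tested. Depth limits genes such as Nod2 and Naip5, with under 40 counts in each library.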
